A study of Homo sapiens with 18 samples.

Results

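The 10 genes described here encode enzymes and core subunits that write or hold histone marks and that are often altered in leukemia. They are EZH2, SUZ12, EED and BMI1 of the Polycomb group, the acetyltransferases CREBBP and EP300, the H3K4 methyltransferases KMT2A and KMT2D, and the H3K36 methyltransferases SETD2 and NSD2. They were chosen by symbol and not by a rule on measured values, though earlier results of these data were known. All 10 were among the 26941 genes of the 3 count tables, each table holding 1 cell line. Where a table listed several RefSeq transcripts of a gene, the one with most counts summed over the 18 samples stood for the gene.

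The samples were RNA-seq libraries of 3 established B-cell acute lymphoblastic leukemia (B-ALL) lines, REH, 697 and RCH-ACV. REH carries the ETV6-RUNX1 fusion and was the 1 line of that subtype, so that a difference between it and the other lines cannot be told apart from a difference between subtypes. Each line was nucleofected with 300 nM of SOX11 siRNA or of a non-specific control siRNA, and RNA was harvested after 48 h, with 3 replicates in each of the 6 groups. All groups therefore share the nucleofection and a siRNA, and no untransfected sample was analysed here. The titles of the SOX11 siRNA samples say KO, whereas the siRNA field and the treatment protocol describe a knockdown. The question was which genes depend on SOX11, a SoxC transcription factor, in lines that express it.

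Polycomb proteins keep genes silent through chromatin. In Polycomb repressive complex 2 (PRC2), EZH2 is the methyltransferase that places H3K27 methylation, SUZ12 holds the complex together, and EED binds the mark and stimulates the enzyme, while BMI1 belongs to PRC1, which ubiquitinates histone H2A. The opposite, activating side is represented by CREBBP and EP300, which acetylate H3K27, and by KMT2A and KMT2D, which methylate H3K4 at promoters and enhancers. SETD2 places H3K36 trimethylation in transcribed genes and NSD2 places H3K36 dimethylation, and mutations or fusions of most of these genes are known from B-ALL or lymphoma.

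The total count per sample ranged from 7039594 to 16592492. SOX11 itself was left at 56.4% in REH, 53.0% in 697 and 62.7% in RCH-ACV after SOX11 siRNA, and its SOX11 siRNA and control samples did not overlap in any line. All 11 B-cell precursor markers were detected, with summed levels of 4586 to 7975 CPM (counts per 1000000 counts, scaled with TMM factors) per sample, whereas T-cell markers summed to at most 0.759 CPM and erythroid markers to at most 0.391 CPM. Of the myeloid markers, which summed to between 2.33 and 31.6 CPM, MPO was present in REH and CSF1R in RCH-ACV. Transcripts longer than 8000 bases stood above the mean of their own group in 8 samples by their median over 890 genes. The highest of these log2 deviations were 0.13 in 697 control replicate 1, 0.10 in RCH-ACV SOX11 siRNA replicate 3 and 0.07 in 697 SOX11 siRNA replicate 3, followed by 0.05 in REH control replicate 2. KMT2A, KMT2D, CREBBP, EP300 and SETD2 exceed 8000 bases, and their siRNA effects in 697 and RCH-ACV are given with and without the first 3 of these samples.

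The genes lie on separate chromosomes apart from KMT2A and EED, which are both on chromosome 11. In the hg19 build that the tables use, EZH2 lies at chr7:148504349-148581413, SUZ12 at chr17:30264026-30328057, EED at chr11:85912254-85989855, BMI1 at chr10:22610028-22620413, CREBBP at chr16:3775055-3930714 and EP300 at chr22:41488596-41576081. KMT2A lies at chr11:118307171-118397547, KMT2D at chr12:49412758-49454577, SETD2 at chr3:47057918-47205603 and NSD2 at chr4:1873120-1983934. EZH2, KMT2D, CREBBP and SETD2 are on the minus strand and the other 6 are on the plus strand. The counts cover the exons of each transcript, so that exonic, UTR and coding parts of a gene were not separated.

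The promoter windows of SUZ12 and NSD2 are shown because these were the members called with SOX11 siRNA, in REH. A window of EZH2 is shown because it holds an E2F-type word, as theirs do. Each window spans 250 bases before to 50 bases after the RefSeq start in GRCh38.p14, written 5′ to 3′ on the strand of the gene, and capitals mark the word that was found. The words searched on both strands were TTCCCGC and TTGGCGC, which are E2F consensus forms, and AACAAT, a SOX-type word, and none of them overlaps another.
SUZ12, chr17:31936757-31937056, plus strand: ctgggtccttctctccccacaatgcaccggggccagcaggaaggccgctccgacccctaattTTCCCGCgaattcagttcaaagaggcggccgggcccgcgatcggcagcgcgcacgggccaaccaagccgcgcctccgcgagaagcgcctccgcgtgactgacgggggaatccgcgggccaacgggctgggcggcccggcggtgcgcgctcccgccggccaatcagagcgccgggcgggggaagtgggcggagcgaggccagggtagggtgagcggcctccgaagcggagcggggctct
NSD2, chr4:1871143-1871442, plus strand: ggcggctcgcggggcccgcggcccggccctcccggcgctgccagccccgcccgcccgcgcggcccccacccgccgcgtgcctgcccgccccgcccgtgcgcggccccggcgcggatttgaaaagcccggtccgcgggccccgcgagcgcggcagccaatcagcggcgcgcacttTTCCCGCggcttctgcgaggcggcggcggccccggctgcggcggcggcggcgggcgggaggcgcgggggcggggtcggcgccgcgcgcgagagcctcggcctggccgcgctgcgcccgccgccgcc
EZH2, chr7:148884242-148884541, minus strand: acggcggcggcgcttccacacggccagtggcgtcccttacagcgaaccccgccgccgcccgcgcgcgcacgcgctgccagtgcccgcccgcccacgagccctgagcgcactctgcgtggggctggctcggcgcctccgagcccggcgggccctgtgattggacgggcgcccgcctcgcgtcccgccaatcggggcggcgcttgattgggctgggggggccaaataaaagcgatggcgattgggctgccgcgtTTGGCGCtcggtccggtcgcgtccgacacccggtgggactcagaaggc

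The word TTCCCGC began 188 bases before the start of SUZ12 and 76 bases before that of NSD2. It was held by 2 of the 13 member windows, and by 6.55% of 35116 promoter windows on either strand. TTGGCGC lay 3 bases after the printed EZH2 start, in 1 of the 13 member windows, and occurred in 3.04% of all windows. Another EZH2 window, chr7:148883436-148883735, held neither word. AACAAT was found in the SETD2 window alone among the 13 windows of the 10 genes and in 10.1% of all windows. The 3 printed windows are rich in G and C, at 73.0% for SUZ12, 86.7% for NSD2 and 74.7% for EZH2. A match describes these letters only and says nothing about the binding of a factor.

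**Figure D1:**
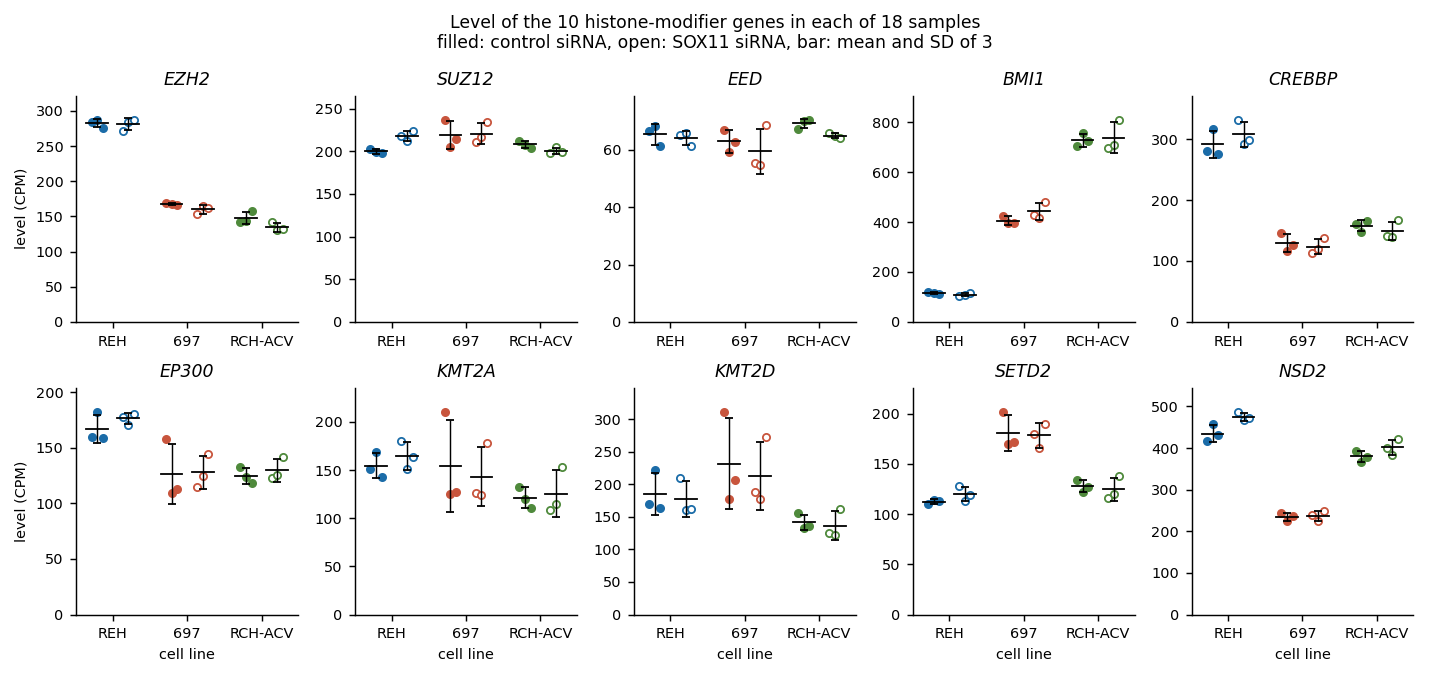
Level of each gene in CPM (y axis, from 0) in the 18 samples, by line, with filled points for control siRNA, open points for SOX11 siRNA, and bars for the mean and SD of 3 replicates. BMI1 separates the lines most, at 106 to 121 CPM in REH and 698 to 810.1 CPM in RCH-ACV, whereas the open and filled points of a line lie close together for each gene.

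Levels can be compared between genes only per transcript length, and the length-scaled level (RPKM, which is CPM per kilobase of transcript) is given here for the control samples as mean ± SD with n = 3. In REH, EZH2 had the highest level per length of the 10 genes at 106.4 ± 2.11 RPKM, followed by NSD2 at 57.5 ± 2.75 and SUZ12 at 44.4 ± 0.63 RPKM. BMI1 at 32.7 ± 1.25 and EED at 31.4 ± 1.74 RPKM followed and overlapped each other between samples. CREBBP at 27.0 ± 2.07, EP300 at 19.0 ± 1.47 and SETD2 at 13.2 ± 0.27 RPKM were separate from their neighbours, and KMT2A at 9.29 ± 0.78 and KMT2D at 8.97 ± 1.56 RPKM were lowest and overlapped.

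In both 697 and RCH-ACV BMI1 took the first place instead, at 115 ± 4.92 RPKM in 697 and 206 ± 7.42 RPKM in RCH-ACV. In 697 it was followed by EZH2 at 63.2 ± 0.39 and SUZ12 at 48.7 ± 3.67 RPKM, and then by NSD2 at 31.1 ± 1.28 and EED at 30.2 ± 1.90 RPKM, whose samples overlapped. SETD2 stood next in 697 at 21.2 ± 2.06 RPKM. The remaining places in 697 were not separated, since EP300 at 14.4 ± 3.07, CREBBP at 12.0 ± 1.35, KMT2D at 11.2 ± 3.38 and KMT2A at 9.29 ± 2.90 RPKM each overlapped the next. Without 697 control replicate 1, EP300 at 12.7, CREBBP at 11.3, KMT2D at 9.31 and KMT2A at 7.61 RPKM (means of 2 samples) kept this order and did not overlap.

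In RCH-ACV the order after BMI1 was EZH2 at 55.5 ± 3.18, NSD2 at 50.2 ± 1.84, SUZ12 at 46.3 ± 0.87 and EED at 33.2 ± 0.78 RPKM, without overlap between neighbours. SETD2 at 15.0 ± 0.70, CREBBP at 14.6 ± 0.83 and EP300 at 14.2 ± 0.79 RPKM overlapped, as did KMT2A at 7.30 ± 0.65 and KMT2D at 6.85 ± 0.58 RPKM. The places of EZH2, NSD2 and EED depend on the transcript length used. The longest annotated transcript has 8568 bases for NSD2 (canonical 7560) and 2767 bases for EED (canonical 2088). With these lengths NSD2 stood below SUZ12 in RCH-ACV, and EED stood below CREBBP in REH. With its longest annotated transcript in place of the canonical one, EZH2 had 62.7 RPKM in REH, 37.3 RPKM in 697 and 32.7 RPKM in RCH-ACV, and then stood below SUZ12 in 697 and in RCH-ACV.

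**Figure D2:**
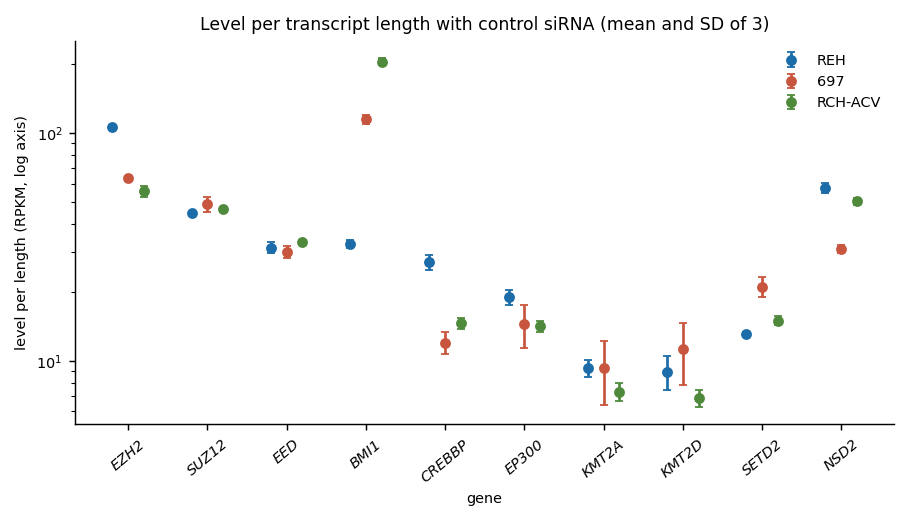
Level per transcript length with control siRNA (y axis, RPKM, logarithmic) for each gene and line, as mean and SD of 3 replicates. BMI1 spans the widest range, from 32.7 RPKM in REH to 206 RPKM in RCH-ACV, while SUZ12 stays between 44.4 and 48.7 RPKM and EED between 30.2 and 33.2 RPKM.

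Several members have a paralog that can take their place in the same complex, and the ratio of the levels per length within each control sample describes which of them prevails. EZH2 exceeded EZH1, the weaker PRC2 methyltransferase, 11.1 ± 1.01 times in REH, 4.86 ± 0.97 times in 697 and 5.51 ± 0.27 times in RCH-ACV. These ratios use canonical lengths and depend on that choice. The longest EZH2 transcript has 4502 bases (canonical 2654), with which its ratio to EZH1 (4633 bases by either choice) would be lower. BMI1 exceeded its PRC1 paralog PCGF2 4.41 ± 0.24 times in REH, 6.83 ± 0.68 times in 697 and 31.0 ± 3.63 times in RCH-ACV. CREBBP stood at 1.42 ± 0.01 times EP300 in REH, at 0.843 ± 0.083 times in 697 and at 1.03 ± 0.09 times in RCH-ACV, so that the ratios of the REH samples lay above those of the other lines without overlap.

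NSD2 exceeded NSD1 3.64 ± 0.16 times in REH, 1.85 ± 0.23 times in 697 and 4.13 ± 0.16 times in RCH-ACV, and it exceeded NSD3 6.59 ± 0.32, 4.39 ± 0.25 and 5.26 ± 0.18 times in the same order. KMT2D and KMT2C, which act at enhancers, were closer, and KMT2D stood at 1.88 ± 0.16 times KMT2C in 697, 1.36 ± 0.08 times in REH and 1.31 ± 0.10 times in RCH-ACV. KMT2A stood at 0.980 ± 0.028 times KMT2B in REH, 0.927 ± 0.326 times in 697 (0.739 without control replicate 1) and 0.652 ± 0.068 times in RCH-ACV. Among the chromobox subunits that read H3K27 methylation for PRC1, CBX2 had 56.1 RPKM in REH, 30.7 RPKM in 697 and 21.6 RPKM in RCH-ACV. CBX6 had 17.0, 16.9 and 16.0 RPKM in the same order. CBX7 at 2.04, 0.558 and 0.822 RPKM and CBX8 at 3.18, 2.38 and 1.20 RPKM were low in each line.

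The control samples of the 3 lines were then compared gene by gene. Of the 10 genes, 8 differed between REH and 697 (4 higher and 4 lower in REH), where 76.2% of 13686 genes tested differed (39.3% higher, 36.9% lower), and 8 differed between REH and RCH-ACV (6 higher, 2 lower), against 73.7% of all genes (36.1% higher, 37.6% lower). Between 697 and RCH-ACV 7 differed (4 higher and 3 lower in 697), against 64.2% of all genes (30.9% higher, 33.3% lower), so that the counts are near the share of all genes. The sizes of the member differences were not compared with those of all genes. The 3 comparisons share control samples pairwise. In bulk RNA, fewer cells that express a gene and less of its RNA per cell cannot be told apart. Unless another tool is named, adjusted p-values come from the quasi-likelihood test of edgeR, adjusted by Benjamini-Hochberg over all genes tested.

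Within PRC2 the subunits differed unequally between the lines. EZH2 had 284, 287 and 276 CPM in REH controls, 169, 168 and 167 CPM in 697 controls, and 142, 143 and 157 CPM in RCH-ACV controls. The REH samples were all above the others, and EZH2 was 1.68-fold higher in REH than in 697 (log2 0.75, adjusted p = 4.29e-11) and 1.91-fold higher than in RCH-ACV (log2 0.93, adjusted p = 2.32e-12). The step from RCH-ACV to 697 was a log2 fold change of 0.18 (adjusted p = 0.00302), and it was 0.12 with scaling by library size alone.

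SUZ12 and EED, the partners of EZH2, stayed close between lines. SUZ12 had 203, 199 and 198 CPM in REH controls, 237, 205 and 215 CPM in 697 controls and 212, 208 and 204 CPM in RCH-ACV controls. SUZ12 was lower in REH than in 697 by a log2 fold change of -0.13 (adjusted p = 0.0193), and this call was lost without REH control replicate 2 (-0.12, 0.0669), REH control replicate 3 (-0.13, 0.0613) or 697 control replicate 1 (-0.08, 0.0959). It did not pass the test against RCH-ACV in REH (log2 -0.07, 95% interval -0.17 to 0.04) or in 697 (log2 0.07, -0.04 to 0.17). With library size alone, which moved the median of all genes by 0.13 between REH and 697, the log2 difference of SUZ12 between these lines came to 0.00051 and turned its sign.

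EED had 66.6, 68.5 and 61.5 CPM in REH controls, 67.0, 59.1 and 62.8 CPM in 697 controls and 67.5, 70.0 and 70.5 CPM in RCH-ACV controls, and the RCH-ACV samples overlapped those of REH and lay just above those of 697. None of its 3 differences passed the test, with log2 values of 0.06 between REH and 697 (95% interval -0.08 to 0.19), -0.08 between REH and RCH-ACV (-0.21 to 0.05) and -0.14 between 697 and RCH-ACV (-0.27 to -0.01, adjusted p = 0.0631). The last was called without 697 control replicate 1 (-0.18, adjusted p = 0.0209) and under library size alone (-0.20, adjusted p = 0.00692), where the difference between REH and 697 was called too (0.19, adjusted p = 0.00705).

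BMI1, which activates the H2A ubiquitin ligase of PRC1, showed the largest differences of the 10 genes between lines. It had 121, 114 and 112 CPM in REH controls, 426, 395 and 397 CPM in 697 controls and 704, 756 and 725 CPM in RCH-ACV controls. The 3 lines did not overlap, and BMI1 was 3.51-fold lower in REH than in 697 (log2 -1.81, adjusted p = 1.21e-16), 6.32-fold lower in REH than in RCH-ACV (log2 -2.66, adjusted p = 6.76e-19) and 1.80-fold lower in 697 than in RCH-ACV (log2 -0.85, adjusted p = 5.84e-12).

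Reads of BMI1 are shared with the readthrough transcript COMMD3-BMI1, which the tables list apart at 124 to 133 CPM in REH controls, 419 to 448 CPM in 697 controls and 745 to 797 CPM in RCH-ACV controls. COMMD3, the gene upstream of BMI1, had 33.8 to 37.3 CPM in REH controls, 82.4 to 88.4 CPM in 697 controls and 137 to 143 CPM in RCH-ACV controls, so that the lines had the same order for both genes. The part of readthrough in the BMI1 values was not tested.

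CREBBP, an acetyltransferase and transcriptional coactivator, had 281, 317 and 276 CPM in REH controls, 145, 117 and 127 CPM in 697 controls and 160.2, 148 and 165 CPM in RCH-ACV controls. REH lay above both other lines in every sample, 2.24-fold above 697 (log2 1.17, adjusted p = 1.64e-11) and 1.84-fold above RCH-ACV (log2 0.88, adjusted p = 8.95e-10). CREBBP was lower in 697 than in RCH-ACV by a log2 fold change of -0.29 (adjusted p = 0.00162).

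Its paralog EP300 varied less. EP300 had 160.0, 182 and 159 CPM in REH controls, 158, 109 and 113 CPM in 697 controls and 132, 123 and 119 CPM in RCH-ACV controls. All REH samples were above the others, with log2 fold changes of 0.39 over 697 (adjusted p = 0.00114) and 0.41 over RCH-ACV (adjusted p = 0.000718). Between 697 and RCH-ACV the log2 fold change of EP300 was 0.02 (95% interval -0.18 to 0.23), and without 697 control replicate 1 it reversed to -0.16 and was called (adjusted p = 0.0224). An antisense transcript, EP300-AS1, reached at most 1.94 CPM as a group mean, and the strand setting of the counting is not given in the sources used here.

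The H3K4 methyltransferases had the widest spread between replicates. KMT2A had 151, 169 and 143 CPM in REH controls, 209.8, 126 and 127 CPM in 697 controls and 133, 120.1 and 111 CPM in RCH-ACV controls. Its value in 697 control replicate 1 stood above all others, and the log2 difference between REH and 697, at -0.00 (95% interval -0.28 to 0.27, adjusted p = 0.995), reversed to 0.29 without that sample (adjusted p = 0.000239). KMT2A was higher in 697 than in RCH-ACV by a log2 fold change of 0.35 (adjusted p = 0.0323), a call lost without 697 control replicate 1 (0.06, 0.438), RCH-ACV control replicate 2 (0.34, 0.0681) or RCH-ACV control replicate 3 (0.28, 0.131). It was higher in REH than in RCH-ACV by 0.34 (adjusted p = 0.0267), which was lost without REH control replicate 2 (0.28), RCH-ACV control replicate 2 (0.34, 0.0595) or RCH-ACV control replicate 3 (0.28, 0.116).

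KMT2D had 169.7, 222 and 164 CPM in REH controls, 310.2, 177 and 207 CPM in 697 controls and 155, 133 and 136 CPM in RCH-ACV controls. Each 697 and each REH sample was above each RCH-ACV sample. KMT2D was 1.63-fold higher in 697 than in RCH-ACV (log2 0.71, adjusted p = 0.000326), and 0.44 on the log2 scale without 697 control replicate 1 (adjusted p = 7.22e-05). Its difference between REH and RCH-ACV of 0.39 (adjusted p = 0.0220) was lost without REH control replicate 2 (0.24, 0.156), RCH-ACV control replicate 2 (0.35, 0.0688) or RCH-ACV control replicate 3 (0.35, 0.0743). Its difference between REH and 697 of -0.32 (adjusted p = 0.0458) was lost without REH control replicates 1 (-0.26, 0.149) or 3 (-0.24, 0.184), 697 control replicate 1 (-0.05, 0.591), or RCH-ACV control replicates 1 (-0.32, 0.0574) or 3 (-0.32, 0.0551). DESeq2 called neither of the last 2 differences of KMT2D and none of the differences of KMT2A.

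SETD2, the enzyme of H3K36 trimethylation, was highest in 697, with 201, 170.0 and 172 CPM in 697 controls, 109.9, 115 and 113 CPM in REH controls and 134, 122 and 127 CPM in RCH-ACV controls. The 3 lines did not overlap, and the log2 fold changes were -0.69 for REH against 697 (adjusted p = 4.94e-09), 0.49 for 697 against RCH-ACV (adjusted p = 8.41e-07) and -0.20 for REH against RCH-ACV (adjusted p = 0.00723, and -0.12 under library size alone).

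NSD2, the enzyme of H3K36 dimethylation, was lowest in 697, with 244, 225 and 236 CPM in 697 controls, 416, 457 and 431 CPM in REH controls and 394, 366 and 379 CPM in RCH-ACV controls. The lines did not overlap, and NSD2 was 1.84-fold higher in REH than in 697 (log2 0.88, adjusted p = 2.27e-12) and 1.62-fold lower in 697 than in RCH-ACV (log2 -0.70, adjusted p = 1.76e-10). The difference between REH and RCH-ACV was smaller, at 0.19 (adjusted p = 0.000856). The 2 short transcripts of NSD2 in the tables, NM_007331 and NM_133334, took 42.5 to 46.0% and 40.6 to 43.8% of the count of the longest-covered one, NM_133330, over the 6 REH samples. In 697 they took 42.7 to 45.4% and 42.4 to 45.7%, and in RCH-ACV 43.1 to 44.6% and 43.9 to 46.2%. The counts of the NSD2 transcripts share exons and are not independent.

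**Figure D3:**
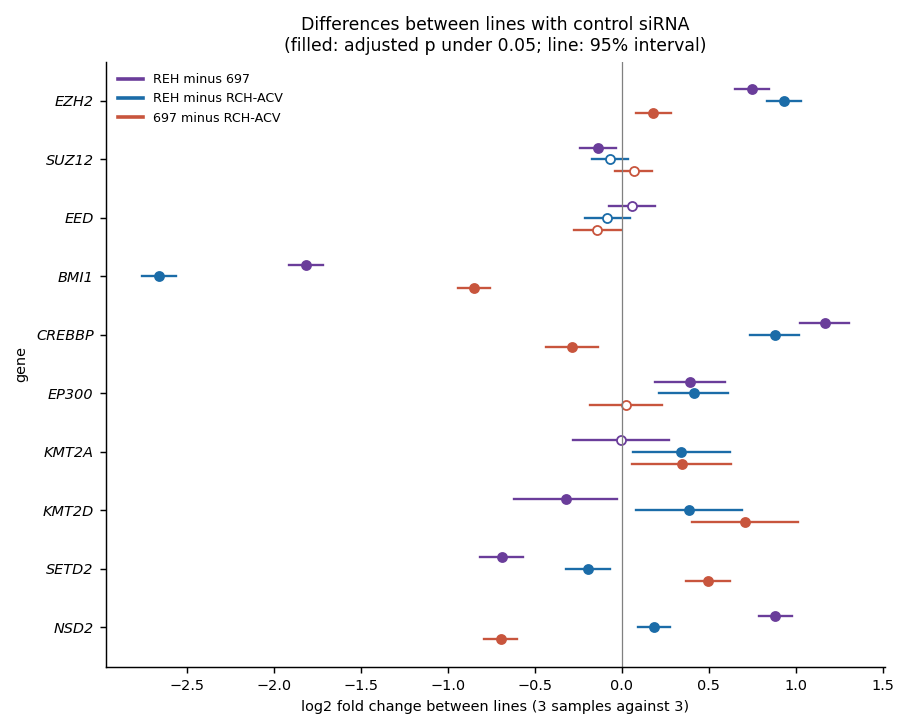
Log2 fold change between lines with control siRNA (x axis) for each gene, with the 95% interval as a line and filled points for an adjusted p under 0.05. BMI1 lies farthest to the left, at -2.66 for REH minus RCH-ACV and -1.81 for REH minus 697, while the EZH2, CREBBP and NSD2 differences of REH minus 697 lie to the right at 0.75, 1.17 and 0.88.

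The effect of SOX11 siRNA was tested within each line. In REH, SUZ12 and NSD2 rose, the only calls among the 10 genes in any line with all samples in the fit, where 4.65% of 12787 genes tested in REH were called (2.64% higher, 2.01% lower). The median log2 fold change of the 10 genes in REH was 0.09, beside -0.00 over all genes tested. DESeq2 called 1 of the 10 genes in REH, NSD2, and 3 had an unadjusted p under 0.05 in edgeR, namely SUZ12, NSD2 and SETD2. The SOX11 siRNA and control samples did not overlap for 2 of the 10 genes in REH, where 21.5% of all genes did not overlap. In the same samples the 6 myeloid markers summed to 14.1 to 16.9 CPM with SOX11 siRNA and 20.7 to 23.7 CPM with control siRNA. ELANE was at 0 in each REH sample, only 2 of the 6 passed the filter, and 1 of these was called, lower. The B-cell precursor markers summed to 7878 to 7975 CPM with SOX11 siRNA and 7253 to 7479 CPM with control siRNA in REH. Of the 10 tested there, 3 were called higher and 1 lower. In 697 their sums were 4661 to 4890 CPM with SOX11 siRNA and 5301 to 5722 CPM with control siRNA, and in RCH-ACV the sums overlapped. The part of the markers in these values was not tested.

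NSD2 had 485, 466 and 472 CPM with SOX11 siRNA and 416, 457 and 431 CPM with control siRNA in REH. Each SOX11 siRNA sample was above each control sample, and NSD2 was 1.10-fold higher (log2 0.14 ± 0.03 SE, 95% interval 0.07 to 0.21, adjusted p = 0.0210 by edgeR). The exact two-sided permutation test over the 3 against 3 samples gave p = 0.1, the smallest that this design can give. The call was lost without SOX11 siRNA replicate 1 (0.12, adjusted p = 0.142), control replicate 1 (0.11, 0.0994) or control replicate 3 (0.13, 0.113), and in 1 fit over the 18 samples (adjusted p = 0.190).

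SUZ12 had 218, 213 and 224 CPM with SOX11 siRNA and 203, 199 and 198 CPM with control siRNA in REH. The groups did not overlap, and SUZ12 was 1.10-fold higher (log2 0.14 ± 0.04 SE, 95% interval 0.06 to 0.22, adjusted p = 0.0324 by edgeR), with an exact permutation p of 0.1. This call was lost without SOX11 siRNA replicate 1 (0.14, 0.110), replicate 2 (0.15, 0.0514) or replicate 3 (0.12, 0.0868), and without control replicate 2 (0.13, 0.108) or control replicate 3 (0.13, 0.135). DESeq2 gave an adjusted p of 0.0877. Reads of the pseudogene SUZ12P1, listed at 7.78 CPM in REH controls, are near-identical to part of SUZ12, and how the counting assigned them was not tested.

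The other 8 genes did not pass the test in REH. EZH2 had 272, 285 and 287 CPM with SOX11 siRNA against 284, 287 and 276 CPM, a log2 fold change of 0.00 with a 95% interval of -0.07 to 0.08. SETD2 had 128, 113 and 119 CPM against 109.9, 115 and 113 CPM, at 0.11 (95% interval 0.01 to 0.21, adjusted p = 0.217). CREBBP and EP300 both stood at 0.09 on the log2 scale (adjusted p = 0.365 and 0.348), KMT2A at 0.10 (0.357), and KMT2D, BMI1 and EED at -0.06 (0.797), -0.07 (0.552) and -0.03 (0.857). KMT2D ranged from -0.20 without SOX11 siRNA replicate 1 to 0.10 without control replicate 2. For each of these 8 genes the samples of the groups overlapped.

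In 697 edgeR called none of the 10 genes, none had an unadjusted p under 0.05, and DESeq2 called none, where 0.559% of 12169 genes were called (0.0822% higher, 0.477% lower). Their log2 fold changes ranged from -0.13 for KMT2D to 0.11 for BMI1 with a median of -0.05, and their adjusted p from 0.626 to 0.998. EZH2 had 153, 165 and 162 CPM with SOX11 siRNA and 169, 168 and 167 CPM with control siRNA, and was the only one of the 10 genes in 697 whose groups did not overlap, where 12.6% of all genes did not (log2 -0.08, 95% interval -0.19 to 0.04, adjusted p = 0.817). BMI1 had 430.3, 417 and 481 CPM against 426, 395 and 397 CPM (log2 0.11, 95% interval -0.00 to 0.23, adjusted p = 0.626).

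The intervals were widest for KMT2A and KMT2D in 697. KMT2A had 127, 124 and 178 CPM with SOX11 siRNA and 209.8, 126 and 127 CPM with control siRNA, a log2 fold change of -0.12 with a 95% interval of -0.52 to 0.29. KMT2D had 188, 177 and 273 CPM against 310.2, 177 and 207 CPM, at -0.13 with an interval of -0.54 to 0.28. In both genes control replicate 1 and SOX11 siRNA replicate 3 were the high samples, and an effect within these intervals was not detectable. Without control replicate 1 both effects turned positive, to 0.16 for KMT2A and 0.13 for KMT2D, and without SOX11 siRNA replicate 3 they were -0.30 and -0.34, with adjusted p from 0.643 to 0.792. The other long genes moved with the same samples, EP300 from 0.00 to 0.19 without control replicate 1 and to -0.08 without SOX11 siRNA replicate 3, CREBBP from -0.08 to 0.01 and -0.16, and SETD2 from -0.03 to 0.05 and -0.07. None of these was called. NSD2 and SUZ12, called in REH, had log2 fold changes of 0.01 (95% interval -0.11 to 0.12) and 0.00 (-0.12 to 0.13) in 697.

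In RCH-ACV edgeR called none of the 10 genes, 1 had an unadjusted p under 0.05, EZH2, and DESeq2 called none, where 7.51% of 12963 genes were called (3.59% higher, 3.92% lower). EZH2 had 142, 130.5 and 132 CPM with SOX11 siRNA and 142, 143 and 157 CPM with control siRNA. The groups overlapped at 142 CPM, and the log2 fold change was -0.13 (95% interval -0.25 to -0.02, adjusted p = 0.151). EED had 65.8, 64.9 and 64.1 CPM against 67.5, 70.0 and 70.5 CPM and was the only one of the 10 genes in RCH-ACV without overlap, where 25.8% of all genes had none (log2 -0.10, 95% interval -0.21 to 0.02, adjusted p = 0.323).

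SUZ12 stood at -0.05 (95% interval -0.14 to 0.04) and NSD2 at 0.08 (-0.02 to 0.17) in RCH-ACV. The values of the long genes in RCH-ACV depended on SOX11 siRNA replicate 3. KMT2D had 125, 122 and 162 CPM with SOX11 siRNA and 155, 133 and 136 CPM with control siRNA (log2 -0.06, adjusted p = 0.729), and without that sample the value was -0.20 and was called (adjusted p = 0.00565). CREBBP had 141, 139 and 167 CPM against 160.2, 148 and 165 CPM (log2 -0.09, adjusted p = 0.438), and without the same sample it was -0.18 and called (adjusted p = 0.00647). In that fit 18.9% of all genes were called (9.80% lower), so that 2 of 10 genes called is near the share of all genes. KMT2A at 0.04, EP300 at 0.05, BMI1 at 0.02 and SETD2 at -0.04 had adjusted p from 0.648 to 0.863 with all samples, and without SOX11 siRNA replicate 3 stood at -0.12, -0.01, -0.05 and -0.12, none of them called.

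**Figure D4:**
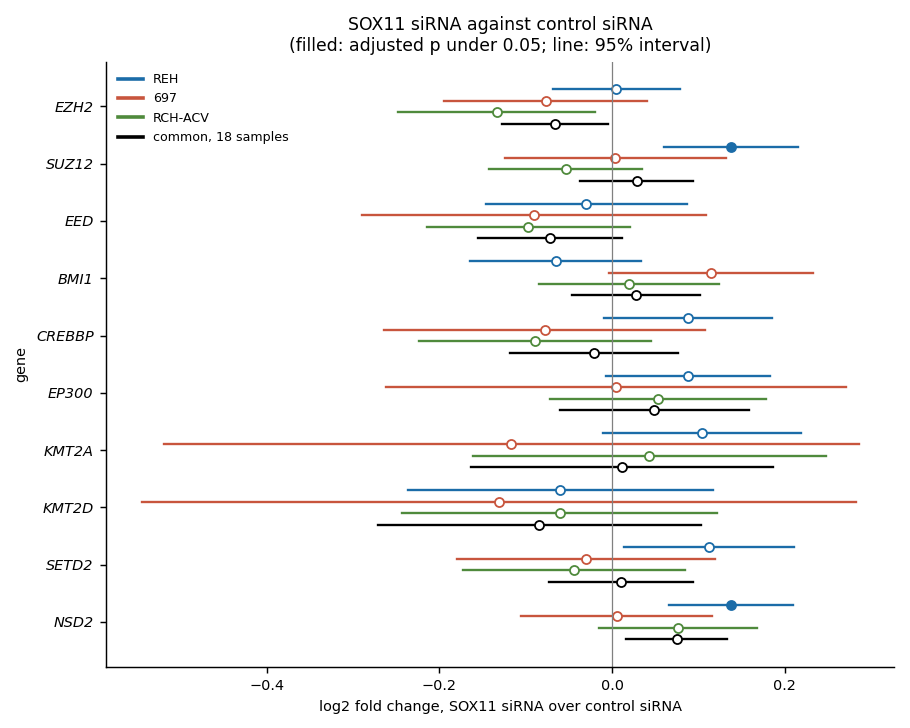
Log2 fold change of SOX11 siRNA over control siRNA (x axis) for each gene in REH, 697 and RCH-ACV and in the common fit over 18 samples, with the 95% interval as a line and filled points for an adjusted p under 0.05. The filled points are SUZ12 and NSD2 in REH, each at 0.14, and the widest intervals are those of KMT2A and KMT2D in 697.

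The difference of the siRNA effect between lines was tested as an interaction over the 18 samples. None of the 10 genes passed, at adjusted p from 0.445 to 1.00, where 0.734% of 14026 genes did. SUZ12 alone had an unadjusted p under 0.05, and DESeq2 called none of the 10. The calls of SUZ12 and NSD2 in REH are therefore not shown to differ from their values in the other lines. A common effect over the lines was called for none of the 10 genes by edgeR or DESeq2, where 8.14% of all genes were called (3.31% higher, 4.83% lower), and NSD2 (log2 0.07, 95% interval 0.02 to 0.13, adjusted p = 0.112) and EZH2 (log2 -0.07, 95% interval -0.13 to -0.00, adjusted p = 0.193) had an unadjusted p under 0.05. The 95% intervals of the common effect ran from -0.15 at the lowest (EED) to 0.16 at the highest (EP300) for 8 of the 10 genes, and reached -0.16 to 0.19 for KMT2A and -0.27 to 0.10 for KMT2D. The common effect of KMT2A, 0.01 with all samples, ranged from -0.04 without RCH-ACV SOX11 siRNA replicate 3 to 0.10 without 697 control replicate 1.

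The precision differed between the genes. Over the 6 groups the median coefficient of variation between replicates was 2.27% for SUZ12, 3.51% for EZH2, 4.40% for NSD2, 4.66% for BMI1 and 4.76% for EED, whose canonical transcripts have 2088 to 7560 bases. It was 6.36% for SETD2, 7.80% for EP300 and 8.92% for CREBBP, and 14.3% for KMT2A and 16.9% for KMT2D, whose transcripts have 16600 and 20635 bases. The highest values were 31.2% for KMT2A and 30.2% for KMT2D, both in 697 controls.

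In 697 control replicate 1 the log2 deviations from the group mean were 0.49 for KMT2A and 0.46 for KMT2D, beside the median of 0.13 for all long transcripts. In 697 SOX11 siRNA replicate 3 they were 0.34 and 0.39, beside 0.07. In RCH-ACV SOX11 siRNA replicate 3 they were 0.31 and 0.26, beside 0.10, and in REH control replicate 2 they were 0.13 and 0.28, beside 0.05. The deviations of KMT2A and KMT2D thus had the direction of the long transcripts in these samples and exceeded their median, while EZH2, with 2654 bases, deviated by 0.01, 0.02, -0.03 and 0.02 in the same order. The part of transcript length in the results for KMT2A and KMT2D was not tested.

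**Figure D5:**
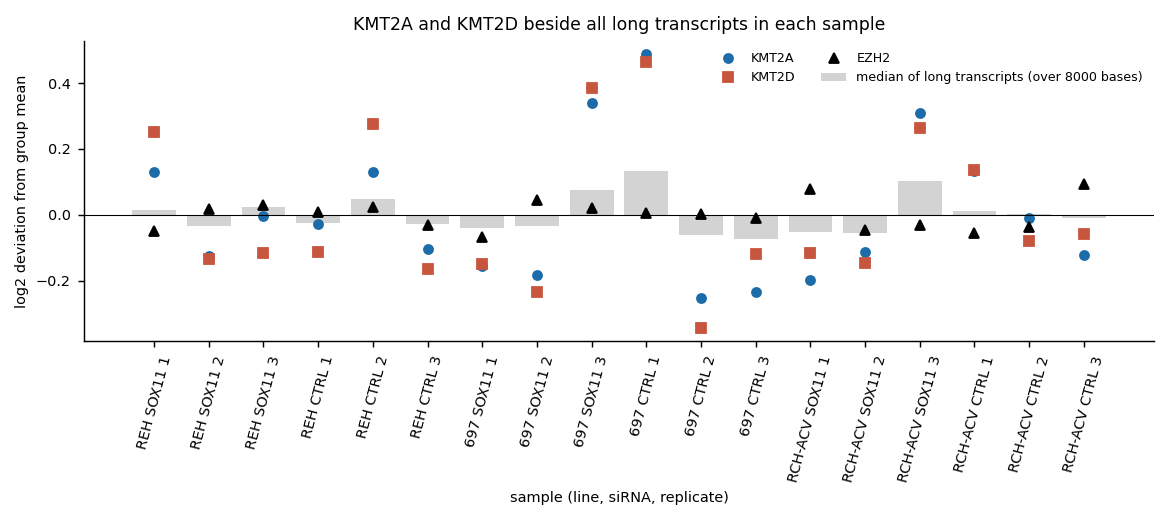
Log2 deviation from the group mean (y axis) in each of the 18 samples for KMT2A, KMT2D and EZH2 (points) and the median of 890 genes with transcripts over 8000 bases (grey bars). KMT2A and KMT2D stand highest in 697 control replicate 1, at 0.49 and 0.46, where the grey bar is also highest at 0.13.

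The other genes of these pathways were taken from lists of 106 writers, readers and erasers, of which 103 or 104 were tested in each line. In REH 9 of 103 were called (5 higher and 4 lower), where 4.65% of all genes were, and in RCH-ACV 11 of 104 (7 higher and 4 lower), where 7.51% were, with medians over the list of 0.03 and 0.01 beside -0.00 and 0.00 over all genes. In 697 edgeR and DESeq2 called none of 103 (0.559% of all genes by edgeR), 9 had an unadjusted p under 0.05, and the median was -0.02. In the common fit 11 of 104 were called (8 higher and 3 lower), where 8.14% of all genes were. DESeq2 called 6 of the list in REH, 6 in RCH-ACV and 11 in the common fit, where it called 315, 577 and 1054 of all genes. The lost calls named below for single genes are those on leaving out a sample.

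Of the 9 PRC2 partners tested, 2 rose in REH, 3 rose in RCH-ACV and 2 were higher in the common fit, where 2.64%, 3.59% and 3.31% of all genes were called higher in the same order. DESeq2 called 1, 1 and 2 of these partners in the same order. PHF19, a Tudor-domain subunit that brings PRC2 to chromatin, had 104, 108 and 94.3 CPM with SOX11 siRNA and 80.3, 87.1 and 85.2 CPM with control siRNA in REH. In RCH-ACV PHF19 had 75.6, 74.3 and 68.4 CPM against 63.3, 55.5 and 62.0 CPM, and neither line's groups overlapped. The log2 fold changes of PHF19 were 0.28 in REH (adjusted p = 0.00192), 0.20 in 697 (0.523), 0.27 in RCH-ACV (0.0171) and 0.25 in the common fit (0.000106). The call in RCH-ACV was lost without SOX11 siRNA replicates 1 (0.24, 0.0781) or 2 (0.25, 0.0897) or control replicate 2 (0.22, 0.0992), whereas the calls in REH and in the common fit held under each alternative.

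JARID2, which binds PRC2 and stimulates it, stood at 0.19 in REH (adjusted p = 0.0408), 0.14 in 697 (0.541), 0.17 in RCH-ACV (0.0414) and 0.17 in the common fit (0.00196). JARID2 lost its call in REH without any SOX11 siRNA replicate (0.20, 0.18 and 0.19 without replicates 1, 2 and 3) or without control replicates 1 (0.15) or 3 (0.16), with adjusted p from 0.0776 to 0.216. In RCH-ACV JARID2 lost its call without SOX11 siRNA replicates 1 (0.19) or 2 (0.17) or any control replicate (0.21, 0.17 and 0.14), with adjusted p from 0.0634 to 0.188. EZH1, the paralog of EZH2, was higher in RCH-ACV by 0.26 (adjusted p = 0.0307), where EZH2 stood at -0.13, and the ratio of EZH2 to EZH1 was 4.27 ± 0.41 with SOX11 siRNA and 5.51 ± 0.27 with control siRNA. That EZH1 call was lost without SOX11 siRNA replicates 1 (0.27) or 2 (0.19) or any control replicate (0.25, 0.26 and 0.26), with adjusted p from 0.0758 to 0.227.

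Of the 25 PRC1 partners of BMI1, 2 rose and 1 fell in REH, 1 rose and 1 fell in RCH-ACV, and 3 were higher and 1 lower in the common fit. Over all genes 4.65%, 7.51% and 8.14% were called in the same order, so that 2 of 25 in RCH-ACV is near the share of all genes. CBX2 had 75.7, 78.9 and 87.0 CPM with SOX11 siRNA and 106, 90.5 and 103 CPM with control siRNA in RCH-ACV, without overlap (log2 -0.31, adjusted p = 0.00685), and the call was lost without control replicate 1 (-0.27, 0.0771). CBX2 stood at -0.11 in REH (adjusted p = 0.0941) and -0.20 in 697 (0.500), and at -0.20 in the common fit (0.00129), which held under each alternative.

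In REH PCGF5 was higher by 0.21 (adjusted p = 0.0145), PHC3 was higher by 0.22 (0.0416) and PHC2 was lower by a log2 value of -0.19 (0.0156). PCGF5 was lost without SOX11 siRNA replicates 2 or 3 or control replicates 2 or 3 (log2 0.17 to 0.21), and PHC2 without SOX11 siRNA replicate 3 (-0.13) or control replicate 3 (-0.19). PHC3 was lost without SOX11 siRNA replicates 1 or 3 or any control replicate (log2 0.15 to 0.24). In the common fit BCOR stood at 0.13 (adjusted p = 0.0106) and held under each alternative and PHC3 stood at 0.18 (0.0184, and 0.16 with 0.0502 without RCH-ACV control replicate 1).

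Erasers remove the marks that KMT2A, CREBBP and EP300 place. Of 10 demethylases tested 2 fell and none rose in REH and 1 fell and none rose in RCH-ACV, and of 10 deacetylases 1 fell in REH, and 2 fell and 1 rose in RCH-ACV, where 2.01% of all genes fell in REH and, in RCH-ACV, 3.92% fell and 3.59% rose. KDM1A, the H3K4 demethylase LSD1, had 346, 341 and 357 CPM with SOX11 siRNA and 390.0, 379 and 398 CPM with control siRNA in REH, and 387, 402 and 407 CPM against 484, 479 and 463 CPM in RCH-ACV. The groups of KDM1A did not overlap in either line, with log2 fold changes of -0.15 in REH (adjusted p = 0.0124), -0.12 in 697 (0.477), -0.26 in RCH-ACV (0.000577) and -0.17 in the common fit (6.89e-05). The REH call of KDM1A was lost without SOX11 siRNA replicates 1 (-0.14, 0.0653) or 2 (-0.13, 0.0695) or control replicate 3 (-0.13, 0.112).

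HDAC2, a class I deacetylase, had 258, 265 and 272 CPM with SOX11 siRNA and 298, 297 and 301 CPM with control siRNA in REH, and 354, 339 and 344 CPM against 389, 398 and 409.9 CPM in RCH-ACV. HDAC2 fell by 0.16 on the log2 scale in REH (adjusted p = 0.00678) and by 0.21 in RCH-ACV (0.00337), stood at -0.14 in 697 (0.403), and was lower by a log2 value of -0.17 in the common fit (2.57e-05). Its REH call was lost without SOX11 siRNA replicate 1 (-0.14, 0.0633) or control replicate 3 (-0.15, 0.0566). HDAC9 fell by 0.30 in RCH-ACV (adjusted p = 0.00238). HDAC1, the close paralog of HDAC2, was higher in RCH-ACV by 0.15 (adjusted p = 0.0324), a call lost without SOX11 siRNA replicates 1 or 2 or any control replicate (log2 0.14 to 0.16).

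The remaining calls were single genes of their lists. In REH PSIP1, which tethers KMT2A to chromatin, was higher by 0.15 (adjusted p = 0.0101, lost without SOX11 siRNA replicate 2, 0.0718). KDM4B was lower in REH at -0.27 (0.0321, lost without any SOX11 siRNA replicate or without control replicates 2 or 3, at -0.29 to -0.21). In RCH-ACV MBD6 was higher by 0.32 (0.0211) and DOT1L, the H3K79 methyltransferase, by 0.21 (0.0470). The MBD6 call was lost without SOX11 siRNA replicates 1 or 2 or any control replicate (log2 0.24 to 0.35), and the DOT1L call was lost without the same samples (log2 0.14 to 0.26). In the common fit PSIP1 stood at 0.11 (0.0195). No gene of these lists passed the interaction test. Other alternatives than leaving out a sample also ended some of these calls. Over all 15 alternatives, PHC3 lost its call in REH in 9, JARID2 in 8 and KDM4B in 7. In RCH-ACV JARID2, EZH1 and DOT1L each lost their call in 8, and HDAC1 in 7.

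Known targets of Polycomb and KMT2A were described by level. HOXA9 and HOXA10, homeobox genes that KMT2A activates and PRC2 silences, had 6.55 ± 0.83 and 4.83 ± 1.00 CPM in REH controls and 0 counts in all 6 samples of 697 and of RCH-ACV. Against a floor of 3 counts per library, HOXA9 was at least 15.0-fold higher in REH controls than in 697 and at least 16.8-fold higher than in RCH-ACV, and HOXA10 at least 11.1-fold and 12.4-fold. HOXA5 had 12.0 CPM in REH controls, 3.38 CPM in 697 controls and 1.77 CPM in RCH-ACV controls. CDKN2A, a cell-cycle inhibitor that BMI1 represses, had 0 counts in all 6 REH samples. In the 697 controls CDKN2A had 0 to 5 counts, and in the RCH-ACV controls 1.46 ± 0.28 CPM. Its neighbour CDKN2B had 0 counts in all 18 samples. The state of the DNA at these genes was not measured here, and the cause of the 0 counts was not tested. Floors cover counting error only. Of the 18 genes of this list 9 were tested in REH, where 4.65% of all genes were called, and 1 of them was called, WT1, at -0.38 (adjusted p = 0.0208, lost without SOX11 siRNA replicates 2, at 0.0690, or 3, at 0.125, or control replicate 3, at 0.0963). DESeq2 called 0 genes of this list in REH.

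The gene most like each member over the 18 samples was read from log2 CPM among 11310 genes tested in each line, as a description in which the points share 3 lines. The Pearson r was 0.99 for EZH2 with TFDP2, 0.99 for CREBBP with FOXO1, 0.99 for NSD2 with UBE2C, 0.98 for SETD2 with TENM4, 0.97 for EP300 with MYCBP2, 0.96 for KMT2A with USP24 and 0.96 for KMT2D with CBL. BMI1 was most like its readthrough transcript COMMD3-BMI1 (1.00), which shares its exons, and then CAMK2D (1.00). SUZ12 with MEF2A (0.81) and EED with COPB2 (0.82) had the lowest values.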

How the data were processed

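RNA-seq read counts of 18 samples were analysed, with total counts of 7039594 to 16592492 per sample. The authors deposited 1 table of raw read counts per cell line, 1 value per RefSeq transcript and sample. Per the submitters' processing notes, reads were checked with FastQC 0.10.1, aligned to hg19 with STAR 2.5.3a and counted with HOMER. The study's methods add trimming and the removal of reads that had more than 2 alignments. A multigene family or readthrough can lose or share reads through this. The kit was stranded, and the strand setting of the counting is not given in the sources used here.

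Of 50678 transcripts 98% matched a symbol, holding 99% of the counts, and each gene was represented by its transcript with most counts summed over the 18 samples. CPM were scaled with TMM factors. The count tables hold no lengths, so RPKM used the length of the GENCODE canonical transcript lifted to hg19, in place of the planned exon length from the table. Each line was fitted alone for the siRNA effect and the 9 control samples together for the lines, with edgeR 4.0.16 (quasi-likelihood test, filterByExpr, threshold 0.05 on the adjusted p) in R 4.3.3. The fit was also run on simulated counts with the same spread for every gene and with changes larger than the siRNA effects of the 10 genes. That run therefore does not bear on those effects. The interaction and the common effect used all 18 samples. DESeq2 1.42.0, limma 3.58.1, Python 3.11.15, scipy 1.17.1, pandas 2.3.3, numpy 2.4.6 and matplotlib 3.10.9 were also used. The replicates are called independent in the study's methods. For the siRNA effect within a line, p-values measure the spread between samples of that 1 line, with 3 per group. The comparisons between lines take 1 estimate of the spread from all 9 control samples, and the interaction and common fits take theirs from all 18 samples. Promoter windows came from RefSeq (GRCh38.p14) by symbol, with all 10 genes matched and 13 windows found.

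Alternatives were other scalings, filters, DESeq2, another choice of transcript, a replicate block, 1 fit over the 18 samples and leaving out each sample. Levels per length in 697 without control replicate 1 were added after seeing the data. The genes named were the 10 genes, SOX11, paralogs and chromobox subunits, list genes called in a line (at most 5 per list), the targets HOXA9, HOXA10, CDKN2A and CDKN2B, and for each member the gene most like it. Some of the genes this rule names are not reported here. HOXA5, COMMD3, COMMD3-BMI1, SUZ12P1, EP300-AS1, BCOR and CAMK2D were named after their values were seen. The genes and lists were chosen with earlier results of these data known. Of 161 list genes 160 were in the tables, all but SETD1B.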

Additional observations from a re-analysis of the deposited data

How the results depend on the processing

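Of 1770 log2 fold changes recomputed under an alternative, 1551 kept direction and call, 162 lost the call, 6 gained one and 51 changed sign. The sign changes concerned siRNA effects in 40 cases and control samples in 11, and 44 of them came from leaving out a sample. In 48 of them neither value was called. The other 3 were SUZ12 between REH and 697 with library size alone (0.00051), and, without 697 control replicate 1, KMT2A between REH and 697 (0.29) and EP300 between 697 and RCH-ACV (-0.16). Library size alone also turned EZH2 in REH (-0.00434), KMT2A between REH and 697 (0.13), SUZ12 between REH and RCH-ACV (0.00688) and EP300 between 697 and RCH-ACV (-0.0414), and KMT2A between REH and 697 was 0.0196 with the replicate block and 0.00617 with all transcripts kept apart. The causes were not tested unless stated.

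Over the left-out samples, the values with a sign change ran as follows. In REH EZH2 ranged from -0.00805 to 0.0285, KMT2D from -0.20 to 0.10 and EED from -0.0650 to 0.00788. In 697 KMT2A ranged from -0.30 to 0.16, KMT2D from -0.34 to 0.13, CREBBP from -0.16 to 0.00574, EP300 from -0.0824 to 0.19, SETD2 from -0.0702 to 0.0458, SUZ12 from -0.0336 to 0.0577 and NSD2 from -0.0228 to 0.0479. In RCH-ACV KMT2D ranged from -0.20 to 0.0248, KMT2A from -0.12 to 0.13, BMI1 from -0.0509 to 0.0571 and EP300 from -0.0108 to 0.10. In the common fit KMT2A ranged from -0.0376 to 0.10, SETD2 from -0.0104 to 0.0368 and CREBBP from -0.0487 to 0.00548. Between control samples KMT2A in REH against 697 ranged from -0.13 to 0.29 and EP300 in 697 against RCH-ACV from -0.16 to 0.11.

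Of the 10 genes, the 2 calls in REH became 1 with DESeq2 (NSD2), 1 with the replicate block (NSD2, adjusted p = 0.0497, with SUZ12 at 0.0862), 0 in 1 fit over the 18 samples, and 0 to 1 on leaving out a sample, which also gave 0 to 2 calls in RCH-ACV in place of 0. Same-numbered deviations from the group means correlated at -0.27 to 0.28. With means of 3 samples this cannot settle whether the replicate numbers pair the samples. The study's methods name no block, so the block is given here only.

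Over all genes, 594 calls in REH became 315 with DESeq2, 228 in 1 fit over the 18 samples and 296 to 522 on leaving out a sample. The 68 calls in 697 became 119 without a filter, 29 with the replicate block, 189 in 1 fit and 25 to 70 without a sample. The 973 calls in RCH-ACV became 577 with DESeq2 and 386 to 2479 without a sample (the highest without SOX11 siRNA replicate 3). The 103 interaction calls became 276 without a filter, 42 with the block and 57 to 179 without a sample, and the 1142 common calls 744 with the block. With all transcripts kept apart, which tests more features, the counts were 1513, 227 and 2597 in REH, 697 and RCH-ACV, 306 for the interaction, 2936 for the common effect, and 23970, 23029 and 20360.0 for REH against 697, REH against RCH-ACV and 697 against RCH-ACV (10429, 10090.0 and 8792 otherwise).

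With 3 replicates, a log2 effect of 0.14 was called for SUZ12 and NSD2 in REH, whereas -0.13 was not called for EZH2 in RCH-ACV or for KMT2D in 697, whose 95% interval ran from -0.54 to 0.28. Levels per length of EZH2, EED and NSD2 moved with the transcript length used.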
